A study of Mus musculus with 3 samples.

Results

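The genes described here are the histone genes of the mouse blastocyst, both the replication-dependent set and the variants, as read on 3 microarrays. They were chosen by name: a probe was taken when its RefSeq transcript belonged to a gene whose symbol is that of a histone H1, H2A, H2B, H3 or H4 gene, in the older Hist1h to Hist4h style or the current style. This gave 75 genes with 82 probes, of 23458 named genes with 33759 probes, and 110 symbols of the gene table meet the rule in all. Of the 75 genes, 45 were replication-dependent, 8 were broadly expressed variants and 21 were types known from the germ line, sorted by their symbols. The remaining 1, H3f4, matched no symbol listed for these groups and was counted apart on that ground alone. The rule uses no measured value.

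Each array held the RNA of 30 pooled blastocysts from superovulated ICR females, collected as zygotes after mating and cultured for 96 h in KSOM medium. The young group came from females 3 to 6 weeks old and the aging group from females 43 to 53 weeks old, both without treatment. The suppressed aging group also came from females 43 to 53 weeks old, and its medium held an antibody that neutralises the chemokine CXCL5 at 10 μg/ml and a selective antagonist of its receptor CXCR2 at 10 nM. The agents were given together, so their parts cannot be told apart. There was 1 array per group, so no difference below has a replicate check and none was tested. In a pool of embryos, fewer cells of a type and less RNA per cell cannot be told apart.

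Histones package DNA into nucleosomes: H2A, H2B, H3 and H4 form the core, and the linker histone H1 binds where DNA enters and leaves it. Replication-dependent histone genes lie in clusters, have no introns and are transcribed mainly in S phase, when new DNA needs new nucleosomes. Their mRNAs end in a stem-loop bound by SLBP instead of a poly(A) tail. Variant histones such as H2A.Z and H3.3 are made from separate genes with polyadenylated mRNAs, also outside S phase, and are placed at promoters or transcribed chromatin. H2ax, counted here with the variants, has an mRNA that can end either way. Which form of a histone mRNA, with or without a tail, the amplification captured was not tested.

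Promoter windows of these groups differed in the motifs they held. RefSeq windows of 300 bases (250 before the annotated start and 50 after it, build GRCm38.p6) were found for 69 of the 75 genes. On both strands, 3 motifs were searched, each counted on its own also where their letters overlap: the TATA box as TATAAA, the CCAAT box as CCAAT, and the octamer as ATTTGCAT, which the factor encoded by Pou2f1 is known to bind. CCAAT stood in 35 of the 41 replication-dependent windows, which belong to 40 genes (85.4%), against 37.4% of all 32851 windows, and TATAAA stood in 23 of 41 (56.1%), against 13.6%. The octamer stood in 8 of 41 (19.5%), against 1.74%. Those 8 windows belonged to H2A (4 of 13) and H2B (4 of 10), and the H1, H3 and H4 windows held no match. CCAAT was present in each H1, H2A, H2B and H3 window but in only 2 of 8 H4 windows. Among the 7 variant windows, 1 held TATAAA, 5 held CCAAT and 1 held the octamer. A match is a run of letters and not a measured binding site.

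The windows of 5 genes whose levels are given below are printed, with matches in capitals: H2ac12 stands for the bright H2A genes, H2aw, H4c3 and H1f5 for genes over 2-fold apart between arrays, and H2az1 for the variants.
H2ac12, chr13:22035594-22035893, minus strand: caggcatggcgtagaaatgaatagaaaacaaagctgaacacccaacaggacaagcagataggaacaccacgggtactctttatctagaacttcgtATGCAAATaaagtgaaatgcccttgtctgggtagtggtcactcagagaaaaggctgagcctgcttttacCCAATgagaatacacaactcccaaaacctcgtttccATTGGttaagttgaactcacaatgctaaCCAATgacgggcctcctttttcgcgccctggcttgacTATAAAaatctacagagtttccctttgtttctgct
H2aw, chr11:58954435-58954734, plus strand: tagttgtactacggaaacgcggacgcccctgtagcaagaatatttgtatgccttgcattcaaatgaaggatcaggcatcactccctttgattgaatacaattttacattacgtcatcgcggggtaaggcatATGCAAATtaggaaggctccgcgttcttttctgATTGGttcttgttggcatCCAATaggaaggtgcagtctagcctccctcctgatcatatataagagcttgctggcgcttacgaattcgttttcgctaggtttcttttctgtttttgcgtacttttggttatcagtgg
H4c3, chr13:23698409-23698708, minus strand: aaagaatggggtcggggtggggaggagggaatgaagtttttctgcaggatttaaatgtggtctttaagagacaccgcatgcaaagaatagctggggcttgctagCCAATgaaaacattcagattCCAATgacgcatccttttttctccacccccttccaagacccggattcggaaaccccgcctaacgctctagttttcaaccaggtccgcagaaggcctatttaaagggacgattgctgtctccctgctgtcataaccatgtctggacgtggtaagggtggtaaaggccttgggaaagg
H1f5, chr13:21780576-21780875, minus strand: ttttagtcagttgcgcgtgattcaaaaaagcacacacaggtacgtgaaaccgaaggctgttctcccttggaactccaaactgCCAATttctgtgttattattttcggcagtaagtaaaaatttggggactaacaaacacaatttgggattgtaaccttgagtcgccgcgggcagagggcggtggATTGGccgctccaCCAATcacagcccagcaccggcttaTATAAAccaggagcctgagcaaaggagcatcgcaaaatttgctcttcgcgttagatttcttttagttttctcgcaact
H2az1, chr3:137864237-137864536, plus strand: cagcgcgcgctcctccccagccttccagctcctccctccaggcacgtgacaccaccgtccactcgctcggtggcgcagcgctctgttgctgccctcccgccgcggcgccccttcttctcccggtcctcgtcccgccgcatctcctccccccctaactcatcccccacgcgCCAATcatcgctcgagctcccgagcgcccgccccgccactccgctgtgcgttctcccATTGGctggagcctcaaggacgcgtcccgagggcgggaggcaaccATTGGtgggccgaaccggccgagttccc
In the H2ac12 window the octamer began 155 bases before the annotated start and TATAAA began 15 bases after it. In H2aw the octamer began 119 bases before the start, and in H1f5 TATAAA began 28 bases before it. The H4c3 window held CCAAT alone, 146 and 126 bases before the start, unlike most H4 windows, of which 5 of 8 held TATAAA. The H2az1 window held CCAAT 3 times and no TATAAA. H2bc6, H4c8, H2bc4 and H2bc21, which also differed over 2-fold, are named only.

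A level here is the log2 of a probe's processed intensity minus the 75th percentile of its array, so 0 is a signal as bright as that percentile. The lowest level that the scanner software called well above background was between -4.32 (aging) and -3.93 (suppressed aging), with -4.20 for young embryos. For a gene with several probes, the brightest was used. Levels of different probes are not compared with each other, because each probe binds with its own strength. Replication-dependent genes of a class have near-identical coding sequences, so their probes may bind one another's transcripts and are not independent readings. The probe sequences were not used here, and this was not tested.

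Most replication-dependent histone genes and every variant were detected. On all 3 arrays, 38 of 45 replication-dependent genes (84.4%) and 8 of 8 variants were well above background, against 13811 of 23458 genes (58.9%). By class, detection on all 3 arrays covered 5 of 5 H1 genes, 11 of 13 H2A, 8 of 11 H2B, 5 of 7 H3 and 9 of 9 H4. The replication-dependent levels ran from -4.0 to 7.81 in young, from -4.15 to 7.76 in aging and from -3.54 to 7.78 in suppressed aging embryos. Of the 18 genes not above background on any array, 15 were germ-line types and 3 were replication-dependent, 1 each of H2A, H2B and H3.

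**Figure D1:**
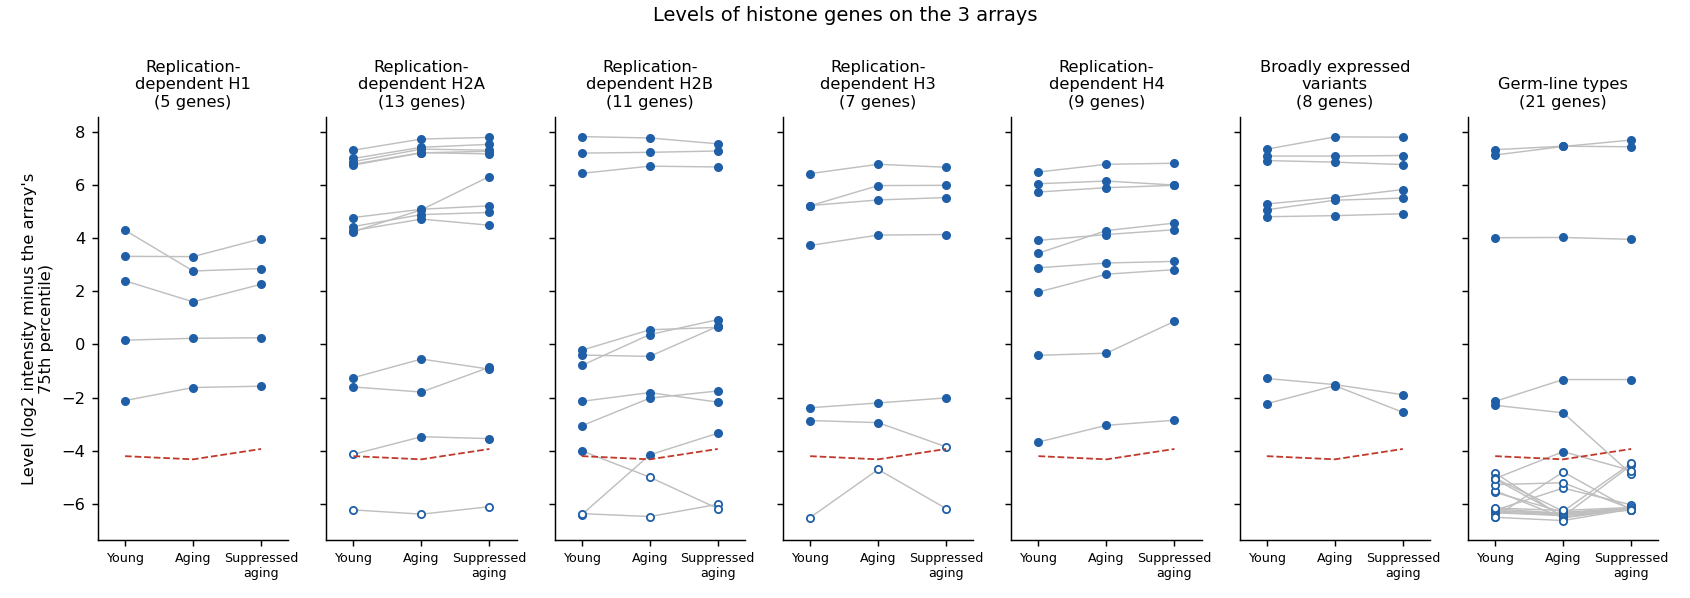
Level (log2 intensity minus the array's 75th percentile) of each histone gene on the 3 arrays, with a panel per class, a line per gene, filled points well above background, open points not, and a dashed line at the detection limit. The bright H2A genes sit higher on the aging than on the young array, H1f5 (top line of the H1 panel on the young array) drops, and most germ-line types lie at or under the limit.

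Between the aging and young arrays, most replication-dependent histone genes were somewhat higher in aging embryos. Of 42 that could be compared, 34 were higher and 8 lower, with a median log2 difference of 0.32 (middle 50% from 0.08 to 0.48). Over all 16164 genes compared, 51.9% were higher and the median difference was 0.027. The scanner software gives each spot an error. Combined over 2 arrays it came to about 0.20 on the log2 scale for bright probes. Of the 39 replication-dependent genes measured on both arrays, 25 were higher by more than this error and 2 were lower (H1f4 and H1f5). Over all genes measured on both arrays, 37.0% were higher and 32.7% lower by more than it. This error covers the reading of an array and not differences between embryos or amplifications.

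Few of these differences were large. Over 2-fold, 2 replication-dependent genes were higher and 1 was lower in aging embryos, while 9.86% of all genes compared were over 2-fold higher and 9.19% over 2-fold lower. Over 5-fold there was no histone gene in any comparison, whereas 2.59% of all genes were so apart between aging and young. That share was 2.29% for suppressed aging minus aging and 2.43% for suppressed aging minus young. Between aging and young, the replication-dependent genes thus differed mostly by small values of 1 sign, and in this comparison their share over 2-fold (4.76% higher, 2.38% lower) lay under that of all genes.

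H2A carried the most even difference. Of 12 replication-dependent H2A genes compared between aging and young, 11 were higher, with a median of 0.45. The next class medians were 0.29 for H3 (5 of 6 higher), 0.22 for H4 (9 of 9 higher) and 0.16 for H2B (7 of 10 higher), and that of H1 was -0.01 (2 of 5 higher). By cluster, 24 of 32 genes named Hist1h in the older style were higher, and 7 of 7 named Hist2h, 2 of 2 named Hist3h and the Hist4h gene were as well. The H2A gene that was not higher was H2ac13, the lowest in mean level of those detected on all arrays, at -1.60 in young, -1.79 in aging and -0.86 in suppressed aging embryos.

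**Figure D2:**
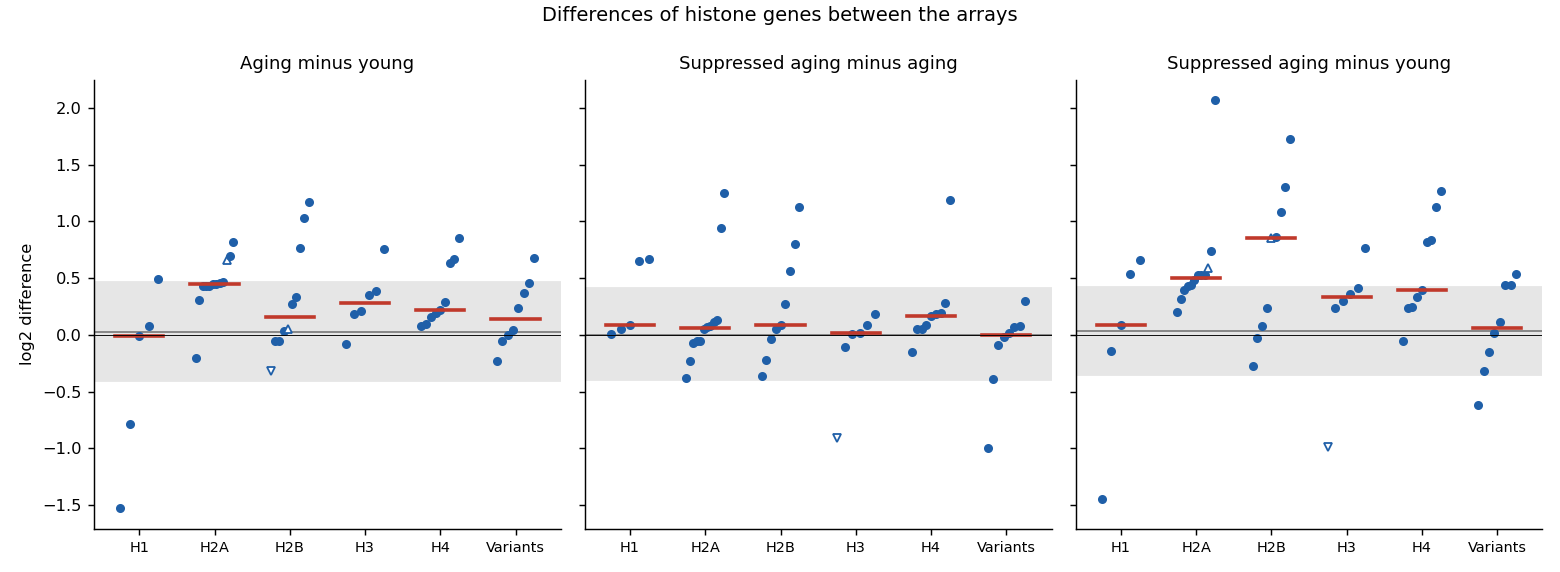
Log2 difference of each histone gene in the 3 comparisons by class, with red bars at the class medians, open triangles for bounds, and a grey band and line for the middle 50% and the median of all genes. Between aging and young the H2A points bunch at their median of 0.45, near the top of the band, and H1f5 lies lowest at -1.53.

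Among the H2A genes, 9 lay over a level of 4 on every array, a level picked after the values were seen: H2ac10, H2ac11, H2ac12, H2ac15, H2ac19, H2ac20, H2ac22, H2ac23 and H2aw. All 9 were higher in aging than in young embryos, by 0.31 to 0.82. Without H2aw the range of the other 8 was 0.31 to 0.47, or 1.24- to 1.38-fold. H2ac12, which had the highest mean level of its class, read 7.30 in young, 7.72 in aging and 7.78 in suppressed aging embryos. So the step lay between young and aging, and the suppressed aging array stayed near the aging array. Between suppressed aging and aging these other 8 genes spanned -0.23 to 0.13, with 5 higher and 3 lower.

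Brightness was set beside this by the lower limit alone, so levels above that limit were not matched. Of 1444 other genes over the same level on every array, 51.3% were higher in aging than in young embryos, with a median difference of 0.006. Of the 18 replication-dependent genes over that level, 17 were higher, with a median of 0.39. The single exception was H2bc14, the H2B gene with the highest mean level, at 7.81 in young, 7.76 in aging and 7.54 in suppressed aging embryos. The 18 genes are not independent readings, because probes of a class may bind one another's transcripts.

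H2aw, an H2A gene outside the large clusters, had the largest difference among the probes used for the genes. Its level was 4.24 in young, 5.06 in aging and 6.31 in suppressed aging embryos. The 3 arrays were thus in that order, and suppressed aging was 2.38-fold above aging (1.25, software error 0.20) and 4.19-fold above young (2.07, software error 0.20). It stayed over 2-fold in both under every alternative processing, with the lowest values being 1.10 and 1.93.

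The H2B genes over 2-fold apart were all of low or middle level. H2bc4 was at -0.79 in young, 0.37 in aging and 0.93 in suppressed aging embryos, 2.25-fold higher in aging than in young (1.17, software error 0.21) and 3.31-fold higher in suppressed aging than in young. H2bc21 was at -3.06, -2.02 and -1.75 in the same order, 2.05-fold higher in aging than in young (1.03, software error 0.27). Its dimmer second probe was not well above background in young and at -2.93 and -2.11 on the other arrays, at least 2.41-fold and at least 4.25-fold higher than young. Both genes were therefore lowest in young embryos, on each probe. With another background correction (normexp), the aging minus young values were 0.79 for H2bc4 and 0.35 for H2bc21, under 2-fold. H2bc6 behaved otherwise, with -0.40 in young, -0.45 in aging and 0.68 in suppressed aging embryos. There the suppressed aging array alone was high, 2.19-fold over aging (1.13, software error 0.21), or 0.80 with normexp.

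Among H4 genes, the differences were of 1 sign between aging and young. H4c3 was at 3.43 in young, 4.28 in aging and 4.56 in suppressed aging embryos, and suppressed aging was 2.19-fold above young (1.13, software error 0.20). H4c8 was at -0.41, -0.33 and 0.87, 2.29-fold higher in suppressed aging than in aging (1.19, software error 0.21), or 0.81 with normexp. So H4c3 was apart mainly between young and the other arrays, and H4c8 in suppressed aging alone. H4c12, highest in mean level of its class, was at 6.48, 6.77 and 6.81, and H4c17, the lowest, at -3.67, -3.04 and -2.85. The H3 genes with the highest and lowest mean level were H3c4, at 6.42 in young, 6.77 in aging and 6.66 in suppressed aging embryos, and H3c11, at -2.38, -2.20 and -2.01. Both were lowest on the young array, but the H3c11 difference of 0.18 between aging and young was within its software error of 0.24.

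The linker histone H1 genes differed among themselves. H1f5 was at 4.29 in young, 2.76 in aging and 2.85 in suppressed aging embryos. It was thus 2.89-fold lower in aging (-1.53, software error 0.20) and 2.73-fold lower in suppressed aging than in young, the only replication-dependent gene over 2-fold lower in these comparisons. H1f1, the H1 gene with the highest mean level, was at 3.31, 3.30 and 3.97, and H1f2, the lowest, at -2.11, -1.62 and -1.57. The young and aging arrays did not differ for H1f1 beyond the software error of 0.20, whereas suppressed aging was 0.67 above aging. Of the 5 H1 genes, 2 (H1f1 and H1f4) were higher in suppressed aging than in aging by more than the software error, and the other 3 were within it. The class median was 0.09, and the sign of H1f2 turned with the scaling (-0.04 on the authors' processed values).

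**Figure D3:**
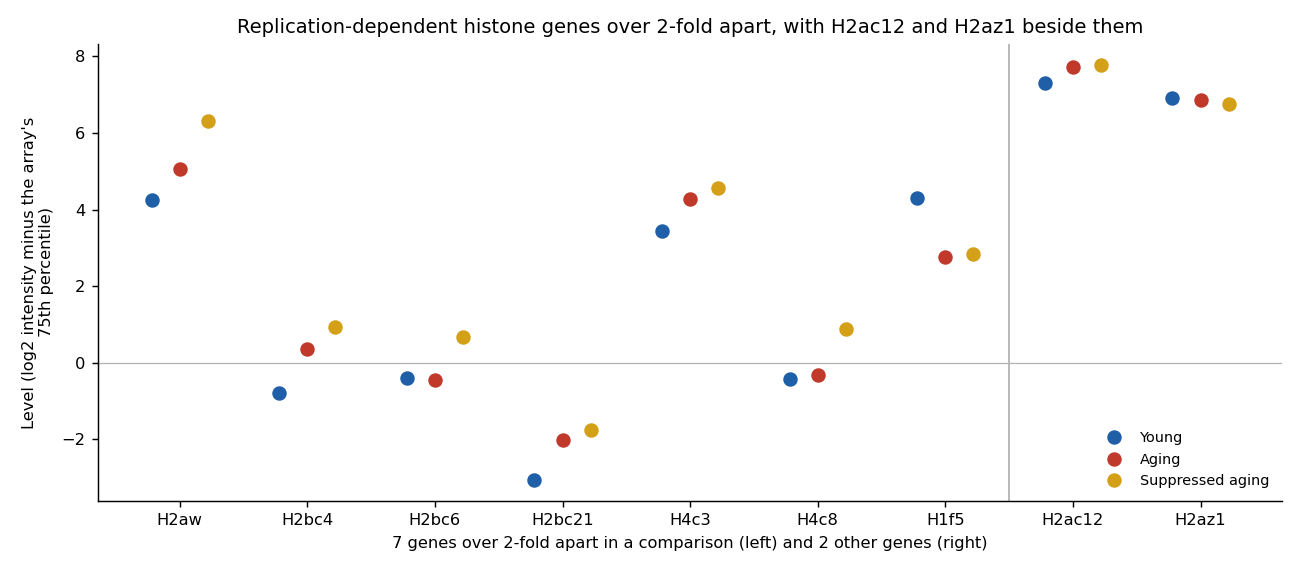
Level (log2 intensity minus the array's 75th percentile) on the young, aging and suppressed aging arrays of the 7 replication-dependent genes over 2-fold apart in a comparison, with H2ac12 and H2az1 to the right of the line. H2aw climbs from 4.24 to 6.31 across the arrays, H2bc6 and H4c8 stand high on the suppressed aging array alone, and H1f5 is highest on the young array.

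Between suppressed aging and aging, the replication-dependent genes as a whole lay close together. Of 41 compared, 30 were higher in suppressed aging and 11 lower, but the median difference was 0.08, and it was -0.01 on the authors' processed values. Over all genes compared, 49.7% were higher and the median was -0.003. More than the software error separated 10 genes upward and 4 downward out of 40 measured on both arrays, beside 33.6% and 34.2% of all genes. Over 2-fold higher were 3 (H2aw, H2bc6 and H4c8) and over 2-fold lower none, against 8.77% and 8.50% of all 15875 genes compared. The class medians ran from 0.02 for H3 to 0.17 for H4. Of the 1444 bright other genes, 58.1% were higher in this comparison, with a median of 0.05.

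Between suppressed aging and young, which shares its arrays with the comparisons above, 35 of 41 replication-dependent genes were higher in suppressed aging, with a median of 0.43 (middle 50% from 0.24 to 0.77). Over all genes compared, 52.4% were higher and the median was 0.034. Of the 1444 bright other genes, 62.9% were higher, with a median of 0.07. By more than the software error, 30 of 38 were higher and 2 lower, against 35.3% and 30.1% of all genes. Over 2-fold, 6 were higher (H2aw, H2bc4, H2bc6, H2bc21, H4c3 and H4c8) and 1 was lower (H1f5), against 8.67% and 7.64% of all 15931 genes compared. The class medians were 0.09 for H1, 0.50 for H2A, 0.85 for H2B, 0.33 for H3 and 0.40 for H4. All 12 H2A genes compared were higher. With normexp the median of the whole set was 0.27, and H2bc6 (0.75), H2bc21 (0.51) and H4c8 (0.96) came under 2-fold.

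The broadly expressed variants differed in both directions. Of 8, 5 were higher in aging than in young, with a median of 0.14, and 4 were higher in suppressed aging than in aging, with a median of 0.00. With normexp these medians were 0.21 and -0.15. H2az1, read by 10 spots, was at 6.91 in young, 6.85 in aging and 6.76 in suppressed aging embryos. H2az2, the other H2A.Z gene, was at 4.80, 4.84 and 4.91. Neither H2A.Z gene differed between arrays beyond the software error of 0.20. H2ax, whose product is phosphorylated at DNA breaks and whose mRNA can end in a stem-loop or a tail, was at 5.06, 5.42 and 5.50. H2aj, close in sequence to replication-dependent H2A, was at 7.34, 7.80 and 7.79. These last 2 genes, 0.37 and 0.46 higher in aging than in young, thus differed by values within the range of the bright H2A genes, and whether their probes also bind those transcripts was not tested.

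The H3.3 genes depended on the probe. For H3f3a the brightest probe was at 7.08 in young, 7.08 in aging and 7.10 in suppressed aging embryos, and a second was at 3.97, 3.12 and 3.41. The third was at -0.77, -0.90 and -1.90. So the brightest probe was flat, while the others were lower in aging than in young by 0.84 and 0.13. For H3f3b, both probes were higher in aging than in young, by 0.24 for the brighter (5.28, 5.52 and 5.82 in young, aging and suppressed aging) and by 0.43 for the dimmer (4.13, 4.56 and 4.52). H3f4, whose symbol matched none of those listed for the groups, was at 4.85, 5.13 and 5.29. Whether its probe also binds transcripts of other H3 genes was not tested.

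The linker variants were dim. H1f0, known for its abundance in cells that have stopped dividing, was at -1.28 in young, -1.51 in aging and -1.89 in suppressed aging embryos. H1f10 was at -2.23, -1.55 and -2.55. Suppressed aging was lowest for both, and H1f10 was 2.01-fold lower there than in aging (software error 0.24 on the log2 scale), just over the limit. With normexp that difference was -0.16.

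**Figure D4:**
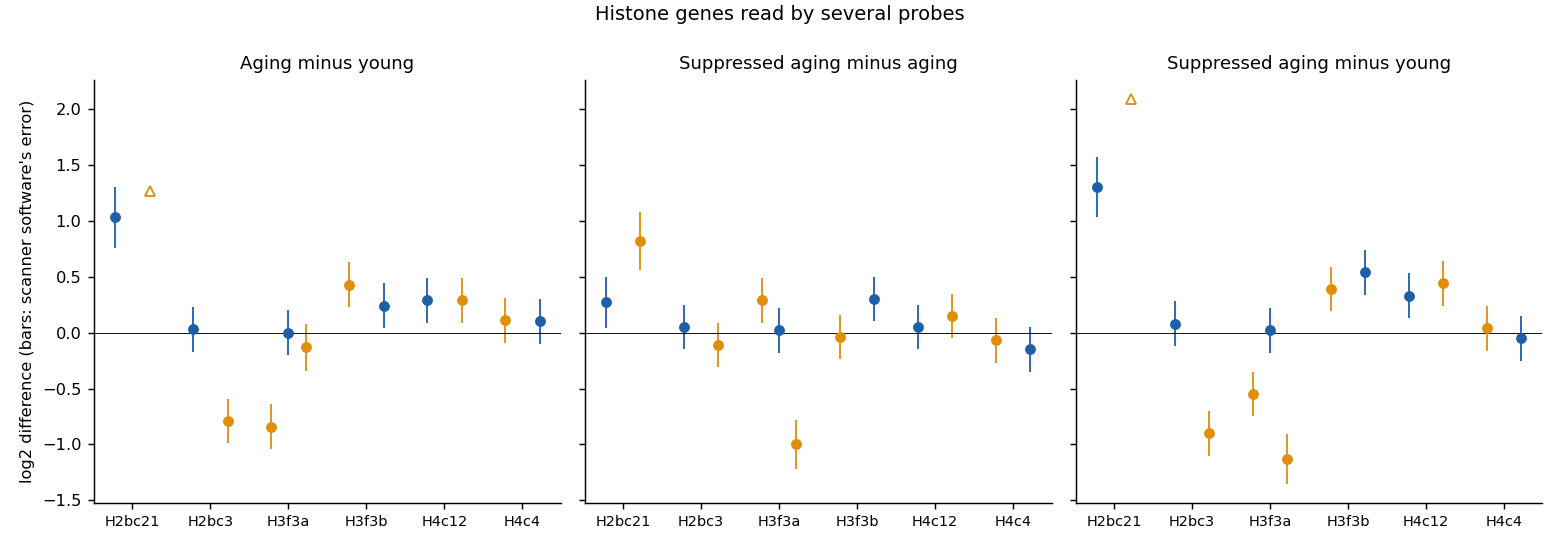
Log2 difference of every probe of the 6 histone genes read by several probes, in the 3 comparisons, with the brightest probe in blue, the others in orange, bars for the scanner software's error and open triangles for lower bounds. H4c12 and H4c4 probes lie close between aging and young, while the probes of H2bc3 (0.03 and -0.79) and H3f3a are apart by more than their bars. The second H2bc21 probe gives only a lower bound there (at least 1.27, beside 1.03 on the first), so how far apart they lie is not known.

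Probes of the same gene were apart in other cases too. For H2bc3, the brighter probe was at 7.19, 7.22 and 7.27 in young, aging and suppressed aging embryos, and the dimmer was at 3.98, 3.19 and 3.08. The brighter was flat and the dimmer was 0.79 lower in aging. The H4c12 probes both differed by 0.29 between aging and young, and those of H4c4 by 0.10 and 0.11.

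Among the 21 germ-line types, 4 were above background on all 3 arrays. H2ac1 and H2bc1, an H2A and H2B pair known from testis, were at 7.12, 7.44 and 7.68 and at 7.32, 7.45 and 7.43 in young, aging and suppressed aging embryos. H1f8, the oocyte linker histone, was at 4.01, 4.02 and 3.95. H1f6, a testis linker histone, was at -2.14, -1.32 and -1.32. So H1f8 and H2bc1 were flat within the software error of 0.20, and H1f6 was 0.82 higher in aging than in young, or 0.32 with normexp. H2ab2 was at -2.29 in young and -2.57 in aging but not well above background in suppressed aging embryos, at least 2.56-fold lower there than in aging and at least 3.13-fold lower than in young. With normexp these differences were -0.16 and -0.37 on the log2 scale, so the bounds did not hold there. As reported, no other germ-line type was over 2-fold apart between suppressed aging and aging. H2al3 was above background in aging embryos alone, at -4.03. H2ac1 and H2bc1 are close in sequence to replication-dependent genes, and whether their probes bind those transcripts was not tested. Of 6 testis and sperm markers, 4 were above background on every array, and Acrv1 and Odf1 were not above it on any. Those detected were dim or of middle level. Prm1, Prm2 and Tnp1 lay between -3.18 and -2.18, and Tnp2 was at 0.23, -0.05 and 0.02 in young, aging and suppressed aging embryos.

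Genes of the machinery that makes and matures histone mRNA differed in both directions. NPAT and CASP8AP2 sit at histone gene clusters and are needed for their transcription. Npat was at 0.33 in young, 1.32 in aging and 0.84 in suppressed aging embryos, 1.98-fold higher in aging than in young, and Casp8ap2 was at 0.03, -0.18 and 0.15. Of the 8 genes listed for histone transcription, 5 were higher in aging than in young (median 0.27) and none was over 2-fold. Pou2f1 was at 3.94, 3.64 and 3.64, lower in aging than in young. Hinfp, a factor for H4 promoters, was at -1.38, -0.74 and -0.02, 2.56-fold higher in suppressed aging than in young, and 2.19-fold on its second probe. Between aging and young its probes differed in sign, with 0.63 on the brighter and -0.21 on the second.

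Of the 17 genes listed for processing and decay of histone mRNA, 12 were higher in aging than in young (median 0.16). Slbp, whose product binds the stem-loop, was at 2.12 in young, 2.08 in aging and 3.83 in suppressed aging embryos, 3.37-fold higher in suppressed aging than in aging. Its dimmer second probe was at -0.48, -0.38 and -0.37, with no such step, so the 2 probes do not tell the same. Cpsf2, of the cleavage complex, was at 2.61, 1.97 and 3.26, 2.45-fold higher in suppressed aging than in aging. The list as a whole went the other way in that comparison, with 5 of 17 higher and 12 lower in suppressed aging (median -0.16). Eri1, the exonuclease that trims the stem-loop, was 2.58-fold, and Zfp473, of the U7 complex, 2.41-fold higher in aging than in young.

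Histone chaperones carry histones to and from DNA. Of 20 H3-H4 chaperone genes compared between aging and young, 10 were higher and 10 lower (median -0.003), and of 16 for H2A-H2B and the variants, 10 were higher (median 0.18). Over 2-fold between aging and young were Cabin1 (1.30) and Ubn2 (-1.04), whose products belong to the HIRA complex for H3.3, and Npm2 (at least 1.29), an egg chaperone. For Cabin1 this held on the brightest of its 4 probes alone, and the others read 0.80, 0.10 and 0.04. The dimmer Ubn2 probe read -0.85. Of all genes compared, 9.86% were over 2-fold higher and 9.19% over 2-fold lower. Hjurp, the chaperone of the centromeric H3, was at 0.80, 1.06 and 2.48 in young, aging and suppressed aging embryos, 2.66-fold higher in suppressed aging than in aging. Asf1a was above background in suppressed aging embryos alone, at least 2.23-fold over aging. Tonsl was 2.17-fold lower in suppressed aging than in young. The 4 probes of Cabin1 differed from each other by far more than their error, from -0.76 to 4.19 between suppressed aging and aging.

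S phase genes differed in both directions. Of 16 genes for DNA replication and nucleotide supply, 7 were higher and 9 lower in aging than in young, with a median of -0.16 and none over 2-fold. Prim1, a primase subunit, was 1.07 lower in suppressed aging than in young on the log2 scale.

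Cell type markers were read on the same arrays, and their part in the histone values was not tested. All 9 trophectoderm and all 9 inner cell mass markers were above background on every array, as the blastocyst label implies. Inner cell mass markers had a median difference of 0.99 between aging and young, with 7 of 9 higher. Over 2-fold, 4 were higher and 1 was lower (Sox17, -1.53), beside 9.86% and 9.19% of all genes compared. The intensities of the inner cell mass markers, each divided by the array's 75th percentile, summed to 1027 in young, 1244 in aging and 1147 in suppressed aging embryos. Most of each sum was the signal of 1 gene, Nanog, at levels of 9.88, 10.14 and 10.03. Trophectoderm markers had a median difference of -0.20 between aging and young, with 7 of 9 lower, and summed to 508, 384 and 451. Oocyte markers were dim. Zp2, Zp3 and Bmp15 were over 2-fold higher in aging than in young, whereas Gdf9 (-0.06) and Nlrp5 (-0.30) were slightly lower. Zp1, Oosp1 and Mos were not above background anywhere (sums of the whole list 0.71, 1.9 and 0.745). Of 9 cumulus and granulosa markers, 4 were above background on every array, while Fshr, Has2, Ptx3, Tnfaip6 and Inha were above it on none. Sums of the whole list were 406, 374 and 439, nearly all from Foxl2, at levels of 8.54 to 8.77. Of 5 blood markers with a probe, Hba-a1 and Hba-a2 were above background on every array, and Ptprc and the globin gene Hbb-bt on none. Hba-a1 and Hba-a2 were highest in aging embryos, 1.88-fold and 3.21-fold above young. They were lower in suppressed aging than in aging by log2 differences of -1.69 and -0.85. Alas2 was lower in aging than in young (-0.77) and not above background in suppressed aging embryos (sums of the blood list 1.05, 1.89 and 0.675).

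**Figure D5:**
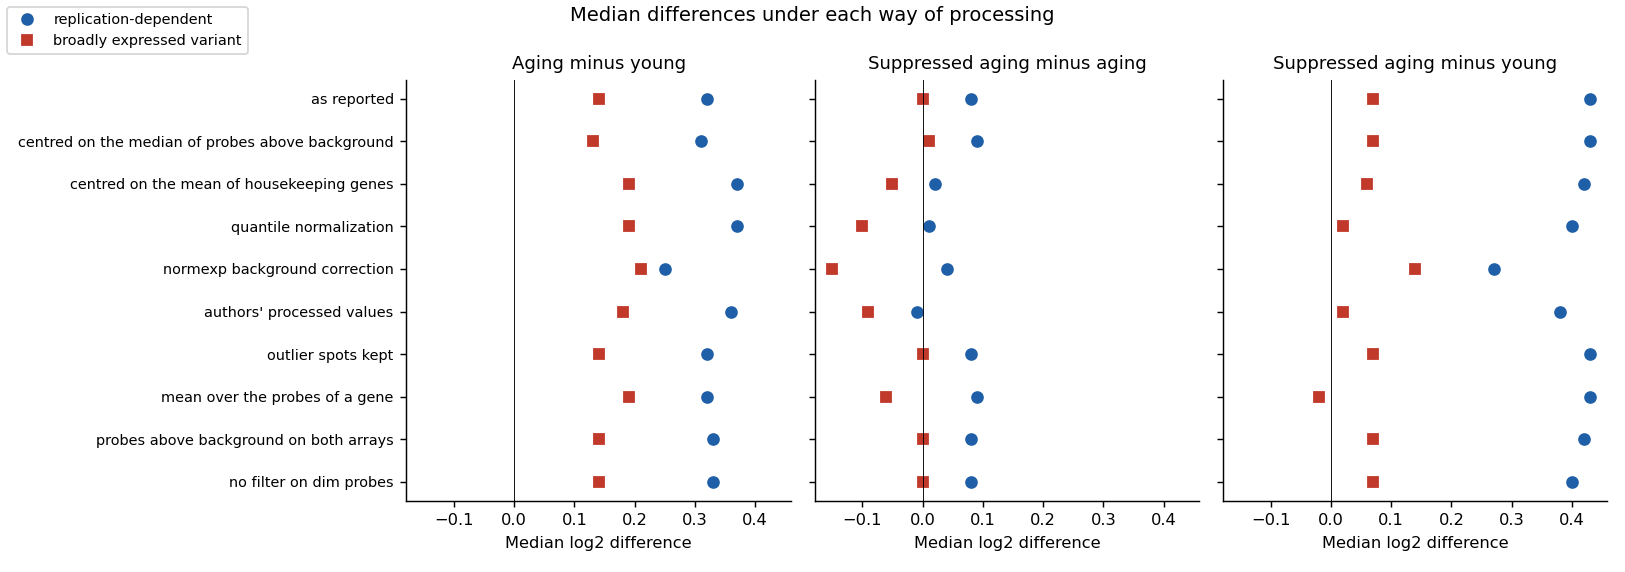
Median log2 difference of the replication-dependent (circles) and broadly expressed variant (squares) histone genes in the 3 comparisons, with a row for each way of processing. Between aging and young the replication-dependent median lies between 0.25 and 0.37 in every row, and between suppressed aging and aging it lies near 0.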

How the data were processed

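RNA of each group was read on 1 Agilent SurePrint mouse array with 1 colour (Cy3). The study's methods describe mRNA taken on magnetic beads and amplified by PCR, and the labels name a kit that labels cRNA; the array files came from Agilent Feature Extraction 12.0.3.1. The deposited intensity is that software's processed signal, which per the file headers is corrected for background. The authors also deposited intensity values scaled by 1 factor per array (3.46 in young, 3.34 in aging, 3.96 in suppressed aging), used here as an alternative.

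From these, outlier spots (85 to 118 per array) were dropped, spots of a probe averaged, log2 taken and the array's 75th percentile subtracted. No spot was saturated. Of 56591 probes with a value on every array, 31892 to 33209 were well above background. A gene could be compared only where its probe was so on at least 1 of the 2 arrays. A dim side was set to the higher of its value and the detection limit, which gives a bound. Where that bound did not settle the sign of the difference, the gene was not compared. Over 300 probes with 10 spots, the median SD between spots was 0.045 to 0.053. The number of arrays, 1 per group, limits the precision, so no test was run. Named genes were all variants and germ-line types above background, replication-dependent genes over 2-fold apart, the highest and lowest of each class by mean level, and listed partner genes over 2-fold apart with Slbp, Npat and Casp8ap2. Members, lists and rules were chosen with earlier results of these data known. Genes were named through RefSeq, and promoter windows were taken from RefSeq (GRCm38.p6). Python 3.11.15, pandas 2.3.3, NumPy 2.4.6, R 4.3.3 and limma 3.58.1 (normexp, offset 50) were used, and the calculation was checked on a simulated array with known shifts.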

Additional observations from a re-analysis of the deposited data

How the results depend on the processing

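No paired analysis was possible because every group was a lone array, and none could be left out. The 16 differences of named histone genes over 2-fold kept their direction in all 142 values under the alternatives, and 127 of these stayed over 2-fold. These values are not independent checks, because the comparisons share arrays and some settings change little by construction. Keeping outlier spots, averaging a gene's probes and the other treatments of dim probes leave a difference measured on 1 probe the same or nearly so. The median of replication-dependent genes between suppressed aging and aging was 0.08 as reported, 0.01 after quantile normalization and -0.01 on the authors' processed values. That of the variants was 0.00 as reported, and -0.10, -0.15 and -0.09 after quantile normalization, normexp and on the authors' values. With normexp, the replication-dependent and variant medians were 0.25 and 0.21 between aging and young (0.32 and 0.14 as reported) and 0.27 and 0.14 between suppressed aging and young (0.43 and 0.07 as reported). With the mean over a gene's probes, the variant median between suppressed aging and young was -0.02. The counts of histone genes over 2-fold were 3 (aging minus young), 5 (suppressed aging minus aging) and 8 (suppressed aging minus young) as reported. They were 1, 1 and 4 with normexp and 0, 0 and 0 at 5-fold. With no filter on dim probes the first 2 counts were 11 and 10. The 9 bright H2A genes were higher in aging than in young under every setting run, by 0.30 to 0.86. The cause of these shifts was not tested.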

Other observations

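Histone genes whose symbols fall outside the naming rule were read as well. Cenpa, which encodes the centromeric H3, was at a level of 3.25 in young, 2.93 in aging and 2.79 in suppressed aging embryos. Macroh2a1, a large H2A variant linked with silent chromatin, was at 2.91, 2.13 and 2.78. Macroh2a2 was at 0.82, 1.5 and -0.13, and was 3.08-fold lower in suppressed aging than in aging. On the probes used, these 2 macroH2A genes thus differed in opposite directions, with Macroh2a1 lowest and Macroh2a2 highest in aging embryos. Macroh2a1 has 4 probes, of which only the brightest is given here, and Macroh2a2 has 1. Hils1, a spermatid linker histone, was not above background on any array.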
